A study of Mus musculus with 2 samples.

Results

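The 46 genes described here are Atf4, the genes it is known to switch on when amino acids or protein folding fall short, the regulators of the translation factor eIF2, and the cytosolic aminoacyl-tRNA synthetases. They were chosen by name, with earlier results of these data known, from 19008 gene symbols that could be assigned among 25707 loci. RNA was sequenced from mesenchymal stem/progenitor cells that were taken from bone marrow and cultured in DMEM and fetal bovine serum. The donor mice were of the CD-1 strain and 3 months old. There were 2 libraries: 1 from cells with floxed alleles of PPARg, the nuclear receptor that drives fat cell formation, and 1 from cells lacking PPARg. The labels do not name the Cre driver, the deleted exons, the passage or how many mice gave cells. Each group has 1 library, so no difference below has a replicate check, and none was tested.

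ATF4 is a basic leucine zipper transcription factor of the integrated stress response. Kinases that sense uncharged tRNA, misfolded protein in the endoplasmic reticulum, heme shortage or double-stranded RNA phosphorylate the alpha subunit of eIF2, which slows translation in general while favouring translation of Atf4 mRNA. ATF4 then acts on genes of amino acid synthesis, amino acid uptake and tRNA charging, often through a composite element that it binds with a C/EBP partner. Since ATF4 is controlled largely at translation, its mRNA level is not its activity.

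Levels are given in FPKM, fragments mapped to a gene scaled by transcript length and library total and summed over its transcripts. All 46 members were matched to a locus. Of these, 42 reached 1 FPKM in at least 1 library, the filter for entering a count, and Slc7a5, Trib3 and Pycr1 passed it through the deficient library only. Stc2, Eif2ak3, Eif2ak4 and Vars stayed below it in both. Of all 10650 kept loci, 8218 reached 1 FPKM in the floxed library and 10202 in the deficient library, so entry through the deficient library only was common. Differences are log2(FPKM + 1), deficient minus floxed, a scale that understates differences of low genes. The median of 10650 kept loci was itself 0.86 higher in the deficient library, so differences are given relative to that median locus unless called "as deposited", and a gene is called higher or lower from 2-fold by size alone.

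Relative to the median locus, 13 of 42 kept members were called higher, which is 31.0%, where 10.3% of all kept loci were. None of the 42 was called lower, where 11.6% of all kept loci were. Because the list was chosen with earlier results of these data known, these shares are a description. The members lay at a median of 0.52, with 31 of 42 above the median locus; by definition as many loci lie above that locus as below it. As deposited, 30 of 42 members were at least 2-fold higher (71.4%, against 42.0% of all kept loci) and 0 were at least 2-fold lower (4.57% of all). That split depends on scaling: with TPM computed over all transcripts and not centred, 8 of 39 kept members were at least 2-fold higher and 1 lower. On that scale 7.77% of 7653 kept loci were higher and 13.2% lower, and the median locus was at -0.07. With a floor of 5 FPKM, 9 of 36 members were called higher, against 11.7% of the loci kept at that floor. Of those 9, Mars1, Ppp1r15a, Shmt2, Slc1a5 and Trib3 reached the floor through the deficient library only, so their entry depended on the library where they were high.

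**Figure D1:**
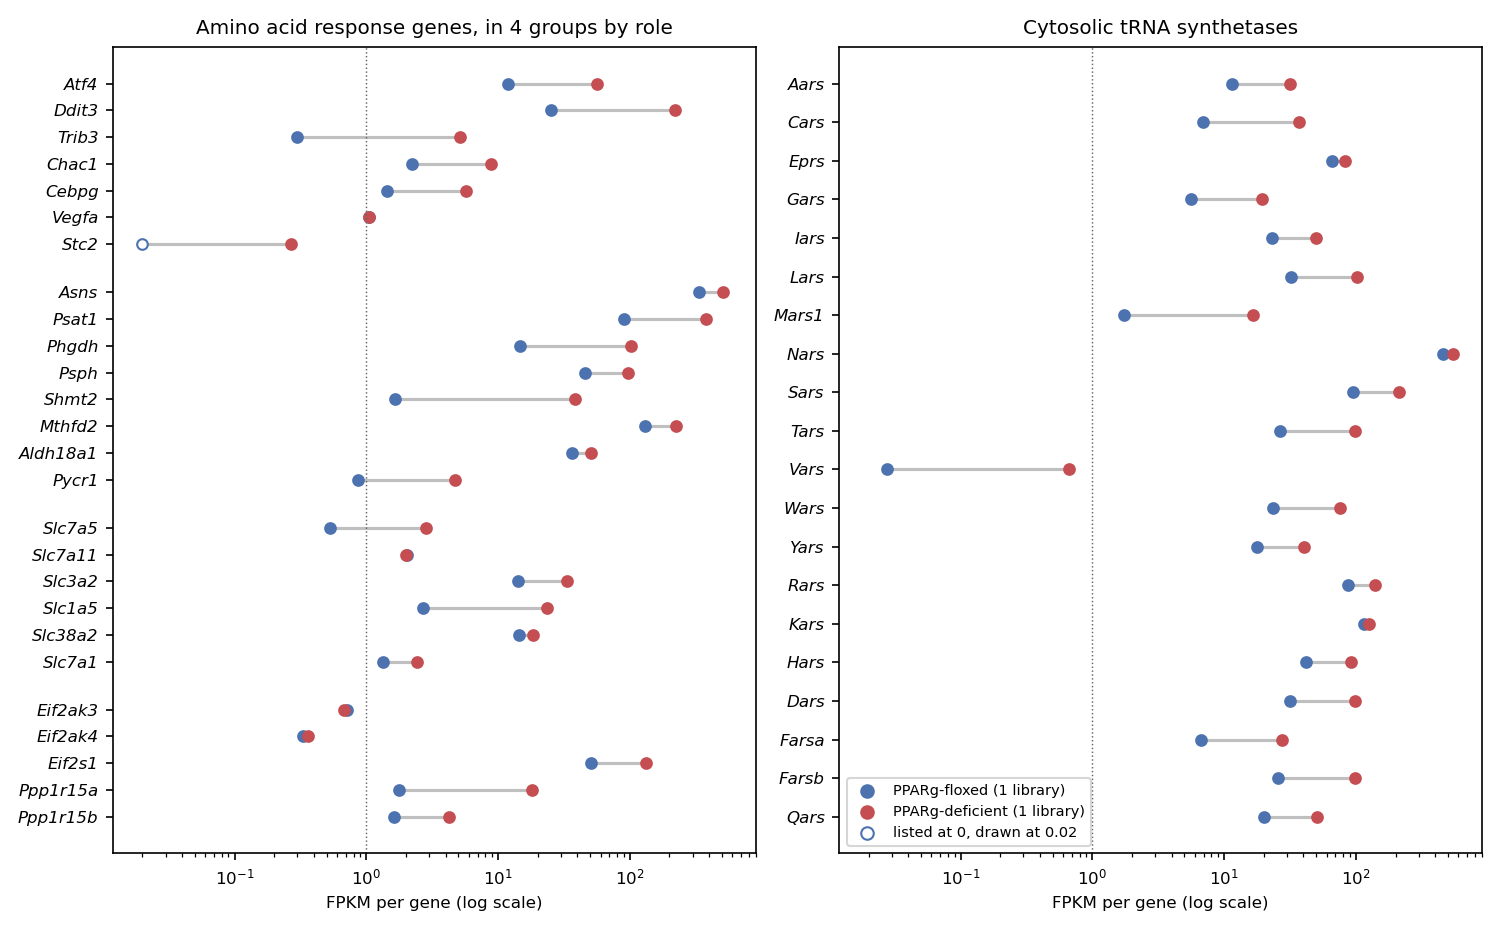
FPKM of each of the 46 members in the floxed (blue) and deficient (red) library, on a log axis, with 1 library per group and no error bars. The dotted line marks 1 FPKM. Most red points lie to the right of the blue ones, Slc7a11, Vegfa, Eif2ak3 and Eif2ak4 have almost coinciding points, and Stc2 has an open point, drawn at 0.02, for its floxed value of 0.

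The shares of called members did not follow one role. Synthesis enzymes, transporters, synthetases and stress effectors each held members far above the median locus and members below it. At 1.5-fold 20 of 42 members were higher (21.9% of all kept loci) and at 4-fold 2, Shmt2 and Ddit3 (1.49% of all). The deposited bounds of the most abundant transcript did not overlap between the libraries for 38 of 42 members, against 72.4% of all kept loci. The loci behind that share were not matched to the members for level or depth. The bounds are as deposited, not relative to the median locus. Asns, Eprs and Nars, which lay below that locus, are among the members whose bounds did not overlap. The largest difference was that of Shmt2 at 3.03, followed by Ddit3 at 2.23 and Ppp1r15a at 1.94. The smallest were those of Slc7a11 at -0.88 and Vegfa at -0.85, both of which had nearly the same FPKM in the libraries. Just inside the 2-fold limit lay Tars (1.01), Farsb (1.03) and Farsa (1.03), and just outside it Lars (0.79), Wars (0.78) and Gars (0.78).

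**Figure D2:**
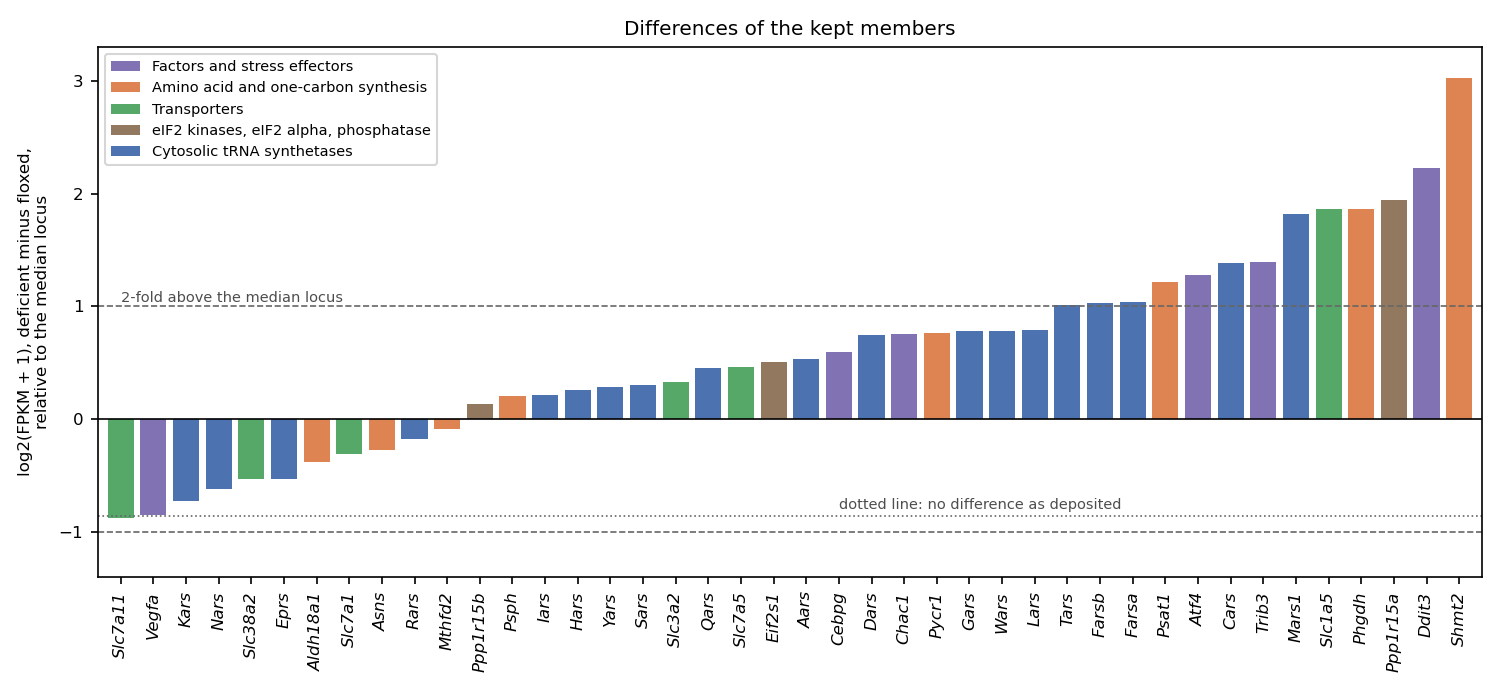
Differences in log2(FPKM + 1) between the libraries, deficient minus floxed, for the 42 kept members, relative to the median locus and coloured by role. Dashed lines mark 2-fold above and below the median locus and the dotted line equal FPKM as deposited; 13 bars reach the upper dashed line and 0 the lower one.

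The promoters of the members were read for the element through which ATF4 is known to act. Genes known as ATF4 targets are often recognised by this element, so its share among the members is a description and not independent of their choice. The core of the C/EBP-ATF response element, TGATGNAA (TTNCATCA on the other strand), was searched on both strands of RefSeq promoter windows of GRCm38.p6, from 250 bases before to 50 after the start site. Of 46 members 36 had a window; Slc7a5, Slc1a5, Ppp1r15b, Cars, Lars, Nars, Vars, Wars, Rars and Hars had none. The core was present for 10 of 36 members (27.8%), where 4.51% of 27025 genes had it. Its stricter form TGATGCAA (TTGCATCA on the other strand) was present for 7 of 36 members (19.4%), against 1.03% of genes. A match is a run of letters and not a shown binding site.

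Matches are listed because their position and flanks differ between members. Each line is read 5′ to 3′ on the strand that holds the core, with the core in capitals and 10 bases on each side.
Chac1, chr2:119351039-119351066: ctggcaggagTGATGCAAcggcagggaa
Trib3, chr2:152344029-152344056: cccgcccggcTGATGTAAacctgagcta
Slc7a11, chr3:50443662-50443689: ctcatgtggcTGATGCAAacctggagaa
Slc7a11, chr3:50443643-50443670: ggctgcatgaTGATGCAAattctccagg
Yars, chr4:129189896-129189923: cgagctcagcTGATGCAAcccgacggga
Asns, chr6:7693215-7693242: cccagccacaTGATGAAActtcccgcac
Gars, chr6:55037961-55037988: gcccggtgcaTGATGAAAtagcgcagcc
Aars, chr8:111033841-111033868: cagagcgctcTGATGAAAagtgacccgc
Pycr1, chr11:120643834-120643861: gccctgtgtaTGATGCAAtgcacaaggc
Iars, chr13:49682127-49682154: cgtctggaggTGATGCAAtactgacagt
Tars, chr15:11399656-11399683: gctaaccagcTGATGCAAcgggactcct

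Counted from the start site, where -1 is the base before it, the core began between -193 (Chac1) and 15 (Trib3). Slc7a11 had 2 cores, which began at -66 and -47 in opposite orientations. The whole windows of Chac1 (plus strand), with a single core far from the start, and Slc7a11 (minus strand), with a facing pair, are printed in the direction of the gene with cores in capitals.
Chac1, chr2:119350992-119351291: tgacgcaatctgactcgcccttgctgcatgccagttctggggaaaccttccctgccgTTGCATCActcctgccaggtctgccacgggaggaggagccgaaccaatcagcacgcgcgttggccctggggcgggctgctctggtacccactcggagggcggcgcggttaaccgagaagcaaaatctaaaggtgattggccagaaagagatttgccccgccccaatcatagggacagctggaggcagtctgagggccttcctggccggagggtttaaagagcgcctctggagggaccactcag
Slc7a11, chr3:50443564-50443863: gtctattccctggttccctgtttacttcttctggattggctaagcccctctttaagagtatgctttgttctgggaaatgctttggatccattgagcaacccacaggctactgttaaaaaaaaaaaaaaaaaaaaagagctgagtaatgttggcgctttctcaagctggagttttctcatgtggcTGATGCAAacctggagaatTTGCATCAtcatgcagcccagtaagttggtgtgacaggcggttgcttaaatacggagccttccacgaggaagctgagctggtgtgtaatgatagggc

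Members are set out here by whether a core lay in the searched window. Sequence outside the window was not searched, and a relation between core and difference was not tested. The 10 members with a core had a median relative difference of 0.64, and 2 of them, Trib3 and Tars, were called higher. The 23 kept members with a window but no core in it had a median of 0.51. Of them 9 were called higher, among them Atf4, Ddit3 and Shmt2. Slc7a11, with its facing pair of cores, had the lowest relative difference of all kept members.

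Among the transcription factors and stress effectors, 3 of 6 kept genes were called higher, where 10.3% of all kept loci were. Atf4, on chromosome 15 from 80085614 to 80087971 (mm9), had 1 transcript of 3 exons. It was at 11.97 FPKM (deposited bounds 10.1 to 13.8) in floxed cells and 55.9 FPKM (52.0 to 59.9) in deficient cells, a ratio of 4.67 and a relative difference of 1.28. The bounds describe the estimate within a library, not the spread between cultures, and they did not overlap. Of all kept loci, 93.8% had a lower relative difference than Atf4.

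Ddit3 encodes CHOP, a C/EBP-like factor induced through ATF4 and linked to cell death under lasting stress. On chromosome 10 from 126727849 to 126733344 it was at 25.1 FPKM (21.04 to 29.2) and 220.8 FPKM (208.9 to 232.7), a ratio of 8.79. The 3′ end of Ddit3 shares 68 bases with that of Mars1, on the opposite strand. The handling of strand is not given in the sources used here, so reads in those 68 bases cannot be assigned to either gene. Trib3, a pseudokinase gene induced by ATF4 and CHOP, was at 0.30 and 5.18 FPKM, with a mean read depth of 0.32 per base in the floxed library. Its relative difference of 1.39 became 0.51 with a pseudocount of 5 FPKM.

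Chac1, which encodes an enzyme that degrades glutathione, was at 2.21 and 8.85 FPKM and at a relative 0.76. Cebpg, a C/EBP partner of ATF4, was at 1.45 and 5.71 FPKM (0.60). Both were about 4-fold higher as deposited, with ratios of 4.001 and 3.94, and neither was called against the median locus. Vegfa, the angiogenic factor gene, was at 1.043 and 1.053 FPKM. Stc2, which encodes the secreted glycoprotein stanniocalcin 2, had an FPKM listed as 0 for the floxed library; the deficient library had 0.27 FPKM.

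Of the 8 genes of amino acid and folate-linked synthesis, 3 were called higher (37.5%, against 10.3% of all kept loci). The other 5 lay within 2-fold of the median locus. The serine pathway showed unequal steps. Phgdh, the first enzyme from glycolytic 3-phosphoglycerate, was at 14.6 and 101.8 FPKM (1.86), and Psat1, the transaminase that follows, at 90.03 and 381.7 FPKM (1.21). Psph, the phosphatase that releases serine, was at 45.8 and 96.8 FPKM (0.20). Shmt2, the mitochondrial enzyme that splits serine into glycine and a folate-bound carbon, was at 1.65 and 38.1 FPKM, a ratio of 23.1. Mthfd2, the dehydrogenase that acts on that carbon next, was at 131.0 and 224.3 FPKM (-0.09).

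Steps within the pathway thus ranged from below the median locus to above 99.6% of kept loci, the place of Shmt2. Asns, which makes asparagine, was the most abundant synthesis gene, at 337.5 and 505.8 FPKM, a ratio of 1.499 and a relative difference of -0.28. Of the proline pathway genes, Aldh18a1, the first enzyme, was at 36.2 and 50.9 FPKM (-0.38). Pycr1, a mitochondrial enzyme of the last step, was at 0.86 and 4.72 FPKM (0.76).

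Several of these values rest on how fragments were divided among transcripts. Of the Phgdh total in the deficient library, 70.4% belonged to a transcript of 421 nt with 2 exons, at 6.81 FPKM (2.19 to 11.4) and 71.6 FPKM (57.9 to 85.3). Because FPKM is per length, a short transcript weighs heavily in a sum. The 5 Phgdh transcripts of at least 1000 nt summed to 5.97 and 28.4 FPKM, a ratio of 4.75 in place of 6.98. Among them, a 12-exon transcript of 1861 nt was at 5.97 and 0.88 FPKM. A second 12-exon transcript, of 1871 nt, went from about 0 (upper bound 0.13) to 23.9 FPKM (21.2 to 26.6).

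For Shmt2, all 3 transcripts had 12 exons and lengths of 2209 to 2305 nt, and all were higher in the deficient library. The shortest of them held nearly all of the floxed signal, at 1.65 FPKM (1.05 to 2.25) and 7.33 FPKM (5.68 to 8.97). The longest was near 0 in the floxed library (upper bound 0.11) and at 24.6 FPKM (22.02 to 27.2) in the deficient library. The leading transcripts of the libraries differed in 1 exon, which is 60 bases long in the floxed one and 156 in the deficient one. Both share the coordinate 126955281 on chromosome 10 (mm9), the 3′ edge of the exon, since Shmt2 lies on the minus strand.

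**Figure D3:**
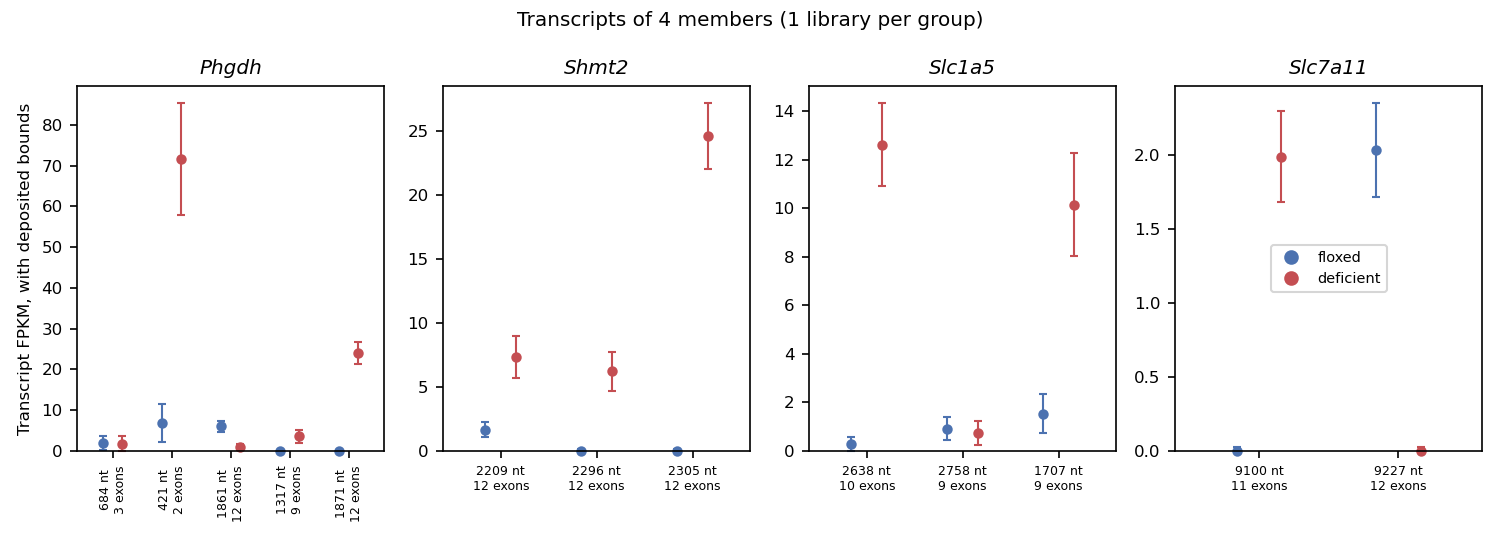
FPKM of the transcripts of Phgdh, Shmt2, Slc1a5 and Slc7a11 that reached 0.05 FPKM, with the deposited bounds as bars, in the floxed (blue) and deficient (red) library. The 421-nt transcript holds most of Phgdh in the deficient library, and the Slc7a11 transcripts of 9227 and 9100 nt take each other's place at the same total level.

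Amino acid transporters differed from one another, with a median at 0.01, that of the median locus. Of 6 kept, 1 was called higher (16.7%, against 10.3% of all kept loci). Slc1a5, the ASCT2 carrier of glutamine and other neutral amino acids, was at 2.71 and 23.5 FPKM, a ratio of 8.66 and a relative difference of 1.86. Its 10-exon transcript of 2638 nt, which was at 0.27 FPKM (0 to 0.59) and 12.6 FPKM (10.9 to 14.3), led in the deficient library. A 9-exon transcript of 1707 nt that begins downstream led in the floxed library, at 1.53 and 10.1 FPKM. Both were higher in the deficient library beyond their deposited bounds.

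Slc3a2 encodes the heavy chain CD98, which pairs with the light chains encoded by Slc7a5 (LAT1, large neutral amino acids) and Slc7a11 (xCT, cystine in exchange for glutamate). Slc3a2 was at 14.1 and 33.5 FPKM (0.33). Slc7a5 was at 0.53 and 2.83 FPKM (0.46), a ratio of 5.32. Slc7a11 was at 2.04 and 1.99 FPKM. The heavy chain was therefore more abundant than either light chain, per length, in both libraries.

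The equal totals of Slc7a11 were assigned to different transcripts, at a low mean depth of 3.27 and 3.20 per base over the gene. A 12-exon form of 9227 nt was at 2.04 FPKM (1.72 to 2.35) in the floxed library and near 0 in the deficient library (upper bound 0.02). An 11-exon form of 9100 nt was near 0 in the floxed library (upper bound 0.03) and at 1.99 FPKM (1.68 to 2.30) in the deficient library. The forms differ by a single internal exon of 127 bases, from 50242711 to 50242837 on chromosome 3 (mm9), and share 9 introns. The 2 remaining carriers were Slc38a2 (SNAT2, small neutral amino acids), at 14.4 and 18.3 FPKM (-0.53), and Slc7a1 (CAT1, arginine and lysine), at 1.35 and 2.43 FPKM (-0.31).

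Of the eIF2 genes among the members, both kinase genes stayed under 1 FPKM. Eif2ak3, which encodes PERK, the sensor of misfolded protein in the endoplasmic reticulum, was at 0.72 FPKM (0.45 to 0.99) and 0.67 FPKM (0.41 to 0.93). Eif2ak4, which encodes GCN2, the sensor of uncharged tRNA, was at 0.33 and 0.36 FPKM. For neither did the bounds of the leading transcript separate. The other eIF2 kinase genes are not members. Eif2ak2 (PKR, the sensor of double-stranded RNA) was at 268.4 and 294.7 FPKM (-0.72). Most of this, 233.6 and 278.6 FPKM, came from a single-exon transcript of 2040 nt, in a gene with up to 16 exons. Eif2ak1 (HRI, the sensor of heme shortage) was at 1.15 and 3.31 FPKM (0.14). Eif2s1, which encodes eIF2 alpha itself, was at 50.7 and 132.5 FPKM (0.51).

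The phosphatase adaptors differed in size. Ppp1r15a encodes GADD34, the stress-induced adaptor that brings a phosphatase to eIF2 alpha and restores translation, and was at 1.76 FPKM (1.16 to 2.37) and 18.2 FPKM (16.3 to 20.1), a ratio of 10.3. Ppp1r15b encodes the constitutive adaptor CReP and was at 1.62 and 4.21 FPKM, a ratio of 2.60 and a relative difference of 0.13. The genes thus stood at nearly the same FPKM in the floxed library and differed in the deficient library.

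Cytosolic tRNA synthetases attach each amino acid to its tRNA. Of 20 genes 19 were kept, and 5 of them were called higher (26.3%, against 10.3% of all kept loci). Above the median locus lay 15, with a median of 0.53 over the 19. Called higher were Mars1 (methionine; 1.73 and 16.5 FPKM, 1.82), Cars (cysteine; 6.97 and 36.8 FPKM, 1.39) and Tars (threonine; 26.4 and 99.3 FPKM, 1.01). The others were Farsa and Farsb, the subunits of the phenylalanine enzyme, at 6.72 and 27.7 FPKM and at 25.8 and 97.9 FPKM. As deposited their ratios were 4.12 and 3.80, so the subunit genes differed by nearly the same factor from unlike levels. Kept but below the median locus were Rars (arginine; -0.18), Eprs (glutamate and proline; -0.53), Nars (asparagine; -0.62) and Kars (lysine; -0.72).

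Nars was by far the most abundant in both libraries, at 460.3 and 543.6 FPKM, and held 42.0% and 28.0% of the summed synthetase FPKM. The sum went from 1097 to 1944 FPKM, a ratio of 1.77. The median FPKM of all kept loci was 2.94 and 6.48, so the sum differed by a smaller factor than that median, while the median synthetase lay above the median locus on the log2(FPKM + 1) scale. Without Nars the sum went from 636.9 to 1401 FPKM, a ratio of 2.20. The highest and the lowest kept synthetase were 265-fold apart in the floxed library and 33.0-fold apart in the deficient library. Their order was much the same, with a Spearman rho of 0.94 over the 19 genes, which share the same length scaling in both libraries.

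After Nars, the floxed library had Kars at 115.3, Sars (serine) at 94.95, Rars at 86.4 and Eprs at 65.4 FPKM. In the deficient library Sars, at 213.5 FPKM, and Rars, at 138.9 FPKM, stood above Kars, at 126.8 FPKM. The bounds of the leading Kars transcript overlapped between the libraries. Eprs, at 82.2 FPKM, was passed by Lars (leucine; 32.0 and 102.3), Tars, Farsb, Dars (aspartate; 31.5 and 97.7) and Hars (histidine; 42.1 and 92.3).

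In the middle of the order, Wars (tryptophan) was at 23.4 and 75.3 FPKM and Iars (isoleucine) at 23.2 and 50.1 FPKM. Qars (glutamine) was at 20.05 and 51.1 FPKM and Yars (tyrosine) at 17.8 and 40.6 FPKM. All 4 lay above the median locus and within 2-fold of it. At the low end, Aars (alanine) was at 11.4 and 31.5 FPKM and Gars (glycine) at 5.60 and 19.5 FPKM. Vars (valine), below the filter, was the lowest in both libraries, at 0.03 FPKM (0 to 0.08) and 0.66 FPKM (0.40 to 0.93).

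In animal cells some synthetases form a large complex held by scaffold proteins. The 8 synthetases of that complex among the members (Eprs, Iars, Lars, Mars1, Qars, Rars, Kars and Dars) had a median of 0.33, and 1 of them, Mars1, was called higher. The 11 kept synthetases outside it had a median of 0.78, with 4 called higher. This division was made after the values were seen. The scaffold genes Aimp1 (57.4 and 126.5 FPKM, 0.27), Aimp2 (45.6 and 132.1 FPKM, 0.66) and Eef1e1 (28.4 and 81.8 FPKM, 0.64) all lay above the median locus and within 2-fold of it.

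The synthetases of mitochondria are encoded by other genes. Of 17 listed 16 were matched and 11 kept, of which 1 was called higher and 1 lower, with a median of 0.10. As deposited 5 were at least 2-fold higher and 1 lower. Over all kept loci 10.3% were called higher and 11.6% lower, and as deposited 42.0% and 4.57%. Of the 11 kept mitochondrial genes 5 passed the filter through the deficient library only, the one called higher among them, where 0 of the 19 cytosolic synthetases did. Of all 10650 kept loci, 8218 reached 1 FPKM in the floxed library and the rest in the deficient library only. Tars2 was at 8.47 and 32.5 FPKM (0.96) and Fars2 at 3.35 and 7.73 FPKM (0.15). Lars2 stood apart at 213.1 and 51.5 FPKM (-2.89). The difference between the mitochondrial and cytosolic lists was not tested.

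**Figure D4:**
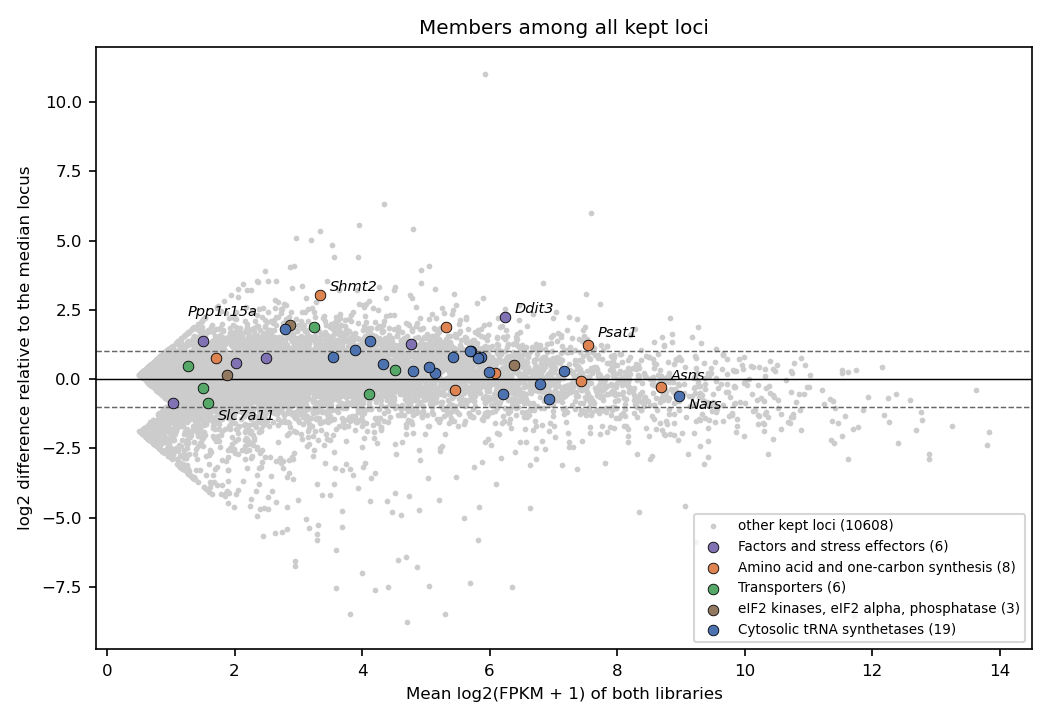
Relative log2 difference of each kept locus (grey) and of the 42 kept members (coloured by role) against its mean log2(FPKM + 1) in both libraries. Dashed lines mark 2-fold above and below the median locus; the members lie within the cloud, more of them above its middle than below, with Shmt2 the highest and Slc7a11 the lowest.

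Across the 42 members the relative difference had little relation to level, with a Spearman rho of -0.17 and a Pearson r of -0.16 with the mean log2 level. Over all kept loci rho was 0.15. These are correlations across genes of the same 2 libraries, and genes are not independent replicates.

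Other targets of ATF4 were taken from a list. Of 31 entries 28 were matched and 20 kept, of which 4 were called higher and 2 lower, with a median of 0.36. As deposited 11 were at least 2-fold higher and 2 lower. Over all kept loci 10.3% were called higher and 11.6% lower, and as deposited 42.0% and 4.57%. Slc38a1, a glutamine carrier gene, was at 1.37 and 22.3 FPKM (2.44), and Atf5, a relative of Atf4 also controlled at translation, at 0.65 and 9.83 FPKM (1.86). Eif4ebp1, which encodes a repressor of cap-dependent translation, was at 14.1 and 88.9 FPKM (1.71). The fourth called higher was Sqstm1, an autophagy receptor gene (3.99 and 27.2 FPKM, 1.64). Those called lower were Map1lc3b, which encodes an autophagosome protein (1090 and 367.3 FPKM, -2.43), and Slc7a3, an arginine carrier gene (2.80 and 0.85 FPKM, -1.90). Of these 20 genes 7 passed the filter through the deficient library only. Of all 10650 kept loci, 8218 reached 1 FPKM in the floxed library and the rest in the deficient library only.

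Further subunits and regulators of eIF2 numbered 14 kept of 15, with 2 called higher, 1 lower and a median of 0.19 (8 and 0 at least 2-fold as deposited). The shares over all kept loci were 10.3% and 11.6%, and as deposited 42.0% and 4.57%. Eif5, which promotes GTP hydrolysis by eIF2 at the start codon, was at 7.55 and 145.7 FPKM (3.24). Most of the deficient value, 125.1 FPKM, came from a single-exon transcript of 121 nt whose bounds ran from 0 to 839.5 FPKM. Eif2b2, a subunit of the exchange factor that recharges eIF2, was at 1.45 and 20.2 FPKM (2.26). Eif2b5, the catalytic subunit of that factor, was at 1.62 and 7.72 FPKM (0.88). Impact, an inhibitor of GCN2 activation, was at 62.01 and 49.4 FPKM (-1.18), which as deposited is less than 2-fold.

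The XBP1 and ATF6 arms of the unfolded protein response, which act beside PERK, had 15 of 19 genes kept, with 1 called higher, 3 lower and a median of 0.36. As deposited 8 were at least 2-fold higher and 0 lower. Over all kept loci 10.3% were called higher and 11.6% lower, and as deposited 42.0% and 4.57%. Dnajb11, a chaperone partner of BiP, was at 1.90 and 11.5 FPKM (1.24). Called lower were the calcium-binding chaperone gene Calr (642.2 and 451.1 FPKM, -1.37), the disulfide isomerase gene Pdia4 (278.9 and 206.2 FPKM, -1.29) and Edem1, which acts in disposal of misfolded glycoproteins (17.4 and 14.8 FPKM, -1.08).

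Libraries and labels were checked with a few genes. Read coverage summed to 1383 megabases in the floxed and 1728 megabases in the deficient library, and the kept members had a median depth of 25.3 and 71.0 per base. Pparg was at 6.86 and 1.39 FPKM. Of 12 stromal markers 9 were kept, with 1 called higher and 2 lower (10.3% and 11.6% of all kept loci) and a median of -0.19. Called lower were Alcam (8.80 and 1.98 FPKM, -2.58) and Nt5e (1.86 and 1.01 FPKM, -1.37), for both of which the bounds of the leading transcript overlapped. The most abundant were Ly6a (530.4 and 841.3 FPKM), Cxcl12 (60.4 and 317.6), Pdgfrb (21.8 and 73.96) and Vcam1 (59.9 and 60.2), and Eng, Thy1 and Lepr stayed under 1 FPKM. The summed level of 9 matched leukocyte markers was 1.56 and 2.37 FPKM, nearly all from Cd68, with Ptprc listed at 0 in both libraries. Endothelial markers summed to 0.02 and 0.26 FPKM, and 5 matched erythroid and megakaryocyte markers to 0 and 0.75 FPKM. In bulk RNA, a different share of cells and a different level per cell cannot be told apart.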

How the data were processed

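RNA from 2 libraries, 1 per group, was sequenced and deposited as transcript annotations with an FPKM value, its lower and upper confidence bounds and a read coverage for each transcript, per the file headers. The submitters' processing notes list Cufflinks 2.0.2 and Cuffdiff 2.0.2, the aligner TopHat2 2.0.5, and mm9 as the build. For the role of each tool, the annotation, strand handling and masking, details were not given in the sources used here. Other values in the deposited files were not used.

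The deposited files carry locus numbers and no gene symbols. A total of 45543 transcripts in 25707 loci, with the same structures in both files, were named by the lengths of their introns and internal exons against GENCODE M21 (GRCm38), with no conversion of coordinates. This named 19064 loci with 19008 symbols. As a check, transcripts were also tried against a wrong chromosome, only the next in a fixed order. There 0 of 36924 whole chains and 2 of 2883 single introns matched a gene. A wrong name on the same chromosome and strand would not show in this check. Genes without an intron, or with models that changed between releases, can be missed. All 46 members were matched, Cebpg by a single intron and Ppp1r15b by 2, the others by a whole chain.

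A gene's level is the sum of FPKM over its transcripts. Loci with a transcript of at least 300 nt and at least 1 FPKM in 1 or more libraries were kept, a pseudocount of 1 FPKM was added, and differences were centred on the median kept locus. The 2-fold limit is a rule of size, not a test. Overlap of the deposited bounds was read for the most abundant transcript. Bounds, coverage and FPKM describe a single library each, so the spread between cultures is unknown.

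The members and lists were chosen with earlier results of these data known, and the division of the synthetases by complex was made after their values were seen. Named are all members; of each other list, up to 4 kept genes of at least 5 FPKM with the largest relative difference; of marker lists, up to 4 genes of highest FPKM; and Pparg. Sqstm1, Slc7a3, Eif2ak1, Eif2ak2, Alcam, Nt5e and the markers at or near 0 were named after their values were seen. Gdf15, Mthfd1l, Cebpb, Mars2, Lyz2 and Hba-a1 of the other lists were not matched and are not analysed here. Promoters are RefSeq's, of GRCm38.p6. A promoter match and a gene of another list are not reported here. Scripts ran in Python 3.11.15 with numpy 2.4.6, pandas 2.3.3, scipy 1.17.1 and matplotlib 3.10.9, and were tested on simulated data.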

Additional observations from a re-analysis of the deposited data

How the results depend on the processing

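With 1 library per group, no library could be left out. No paired analysis was possible because each group has 1 library. The count of 13 of 42 members called higher became 30 of 46 with no filter on low values, where 24385 loci were kept in place of 10650. At 1.5-fold it was 20 of 42 (21.9% of all kept loci) and at 4-fold 2 of 42 (1.49%). It was 9 of 36 with a filter of 5 FPKM (11.7% of 6186 loci), 9 of 39 with TPM over all transcripts and 9 of 42 with upper-quartile scaling. A count of 11 came with a pseudocount of 0.1 FPKM (of 42), TPM over transcripts of at least 300 nt (of 43) or the most abundant transcript (of 42). With a pseudocount of 5 FPKM it was 15 of 42. For the other alternatives the share of all kept loci called higher relative to the median locus is not given here. The count of 0 called lower became 3 with a pseudocount of 0.1 FPKM (Kars, Slc7a11 and Vegfa), 2 with the most abundant transcript alone (Slc7a11 and Vegfa) and 4 at 1.5-fold. As deposited, the count of 30 became 8 with TPM over all transcripts and 10 at 4-fold, and the count of 0 lower became 1 with TPM over all transcripts and 1 with the most abundant transcript. The median relative difference of 0.52 was 0.40 with a pseudocount of 0.1 FPKM, 0.59 with 5 FPKM, 1.26 with no filter, 0.46 with a filter of 5 FPKM, 0.49 with TPM over transcripts of at least 300 nt, 0.50 with TPM over all transcripts, 0.44 with upper-quartile scaling and 0.48 with the most abundant transcript. It was 0.54 over transcripts of at least 1000 nt, an alternative chosen after seeing the data. The cause of these changes was not tested. With no filter the median locus itself moved to 0.05. Atf4, Ddit3, Mars1, Phgdh, Ppp1r15a, Shmt2 and Slc1a5 kept their call in every alternative that changed a level or the scaling and gave a value; Ddit3, with a transcript of 871 nt, gave none over transcripts of at least 1000 nt. Trib3, Cars, Psat1, Tars, Farsa and Farsb lost it in at least 1. Of 452 recomputed values of single members, 402 kept the call, 50 changed it and 0 changed sign after a call. By gene, 26 of 42 members had a call that changed under at least 1 of the 11 alternatives. Depth limits the lowest genes most: Trib3 rests on a coverage of 0.32 per base in the floxed library.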

Other observations

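Transcript shares differed between the libraries for further members. Slc38a2, whose total was 1.27-fold higher in the deficient library, had 43.8% of its FPKM in a 15-exon transcript in the floxed library and 10.6% in the deficient library. Its 16-exon transcript of 4628 nt went the other way, from 15.8% to 56.8%, at 2.28 FPKM (1.63 to 2.93) and 10.4 FPKM (9.21 to 11.6). Cars had 74.8% and 56.1% in its 2973-nt transcript and 9.23% and 39.1% in one of 3222 nt. Wars had 61.0% and 90.6% in its 2831-nt transcript. Transcript estimates of a gene share reads, and no share was tested.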
